A study of Mus musculus with 14 samples.

Results

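The genes described here are *Tfe3*, its 3 relatives of the MiT family of transcription factors (*Tfeb*, *Mitf* and *Tfec*), and 6 genes of the folliculin axis (*Flcn*, *Fnip1*, *Fnip2*, *Rragc*, *Rragd* and *Gpnmb*). They were chosen by name, and all 10 were found among the 54446 gene identifiers of the series. RNA was measured in 14 bulk RNA-seq libraries of E14 mouse embryonic stem (ES) cells, grown in serum and LIF without feeders. Wild-type cells were sampled untreated (0 h) and after 24, 72 and 144 h of mTORi, the mTOR kinase inhibitor INK128 at 200 nM, and *Tet1/2* double-knockout (DKO) cells at 0, 24 and 72 h of the same treatment, with 2 libraries in each of the 7 groups. The DKO cells came from single sorted cells after Cas9 cutting in both genes, so a DKO line is a clone. The study sampled DKO cells for RNA only up to 72 h, before their colonies differentiated, so there is no DKO group at 144 h. RNA came from a fixed number of sorted cells with ERCC spike-ins, synthetic RNAs added in known amount.

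Folliculin, encoded by *Flcn*, works with either of its partners FNIP1 and FNIP2 at the lysosome surface, where it acts as a GTPase-activating protein on RagC and RagD. These Rag GTPases, encoded by *Rragc* and *Rragd*, bring MiT factors to the lysosome, where mTORC1 phosphorylates them and keeps them in the cytoplasm. When that hold is released the factors enter the nucleus and switch on lysosomal and autophagy genes, and in ES cells nuclear TFE3 is known to oppose exit from naive pluripotency. RNA levels do not report this shuttling, and the values below are transcript levels only.

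Every level is given on 2 scales. Plain TPM (transcript abundance corrected for transcript length) sums to the same total in each library. Spike-in normalized TPM multiplies it by 1 factor per library, so that it follows RNA per sorted cell. The factors ran from 1 in a wild-type 144 h library to 2.81 in a DKO 0 h library. Those of 1 group could differ, with 2.24 and 1.36 at DKO 24 h and 2.53 and 1.73 at DKO 72 h, while both untreated wild-type factors were 2.11. All 14 equalled 38 divided by a multiple of 0.5, to within 0.00026%, so each is a coarse step. On the spike-in scale the median of the 18232 genes tested was lower by 0.33 (log2) at 24 h and 0.83 at 144 h in wild-type cells, and a gene that kept its share of the RNA pool fell with it. On the plain scale these medians were -0.0077 and 0.055. In bulk RNA, fewer cells of a type and less RNA per cell cannot be told apart.

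The libraries carried the ES cell markers, with all 7 detected (*Pou5f1*, *Sox2*, *Nanog*, *Esrrb*, *Zfp42*, *Klf4* and *Tfcp2l1*). *Tet2* was lower in the DKO at each shared time (log2 difference -1.93 at 0 h, limma adjusted p = 0.015). *Tet1* was not called different on the spike-in scale (untreated means of 2 libraries 409.6 TPM in wild type and 388.0 in the DKO), whereas on the plain scale it was lower in the DKO at 24 h (-0.51, limma adjusted p = 0.024). Gene-level TPM also counts exons outside the cut sites, and their part in the *Tet1* values was not tested. Primitive endoderm markers (6 of 6 detected) varied between libraries, with summed spike-in normalized TPM from 12.9 to 337.6. Of the markers of macrophages and melanocytes, cells in which MiT factors are abundant, 5 of 6 and 3 of 5 were below 1 TPM in every library. The others were above it in every library, with *Cd68* at 8.14 to 56.0, *Mlana* at 1.29 to 23.2 and *Pmel* at 1.87 to 11.1 spike-in normalized TPM.

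*Tfe3* was the most abundant MiT transcript in every group. It stood at 83.0 and 99.8 spike-in normalized TPM in untreated wild-type cells, 58.8 and 73.8 after 24 h, 93.2 and 68.0 after 72 h and 54.0 and 49.8 after 144 h. In the DKO it stood at 113.4 and 74.7 at 0 h, 61.8 and 45.3 after 24 h and 81.0 and 65.7 after 72 h. Both wild-type libraries at 24 h and both at 144 h lay below both untreated ones, while those at 72 h overlapped them. *Tfe3* fell by 0.80 on the log2 scale at 144 h (SE 0.29, limma adjusted p = 0.029), beside an all-gene median of -0.83. In plain TPM the direction turned, with 39.3 and 47.3 TPM untreated and 50.4 and 49.8 TPM at 144 h (log2 change 0.21, SE 0.15, limma adjusted p = 0.34). The call was lost when any of the 4 libraries compared was left out (limma adjusted p = 0.062 without untreated replicate 1, 0.19 without untreated replicate 2, 0.093 without 144 h replicate 1 and 0.15 without 144 h replicate 2).

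*Tfeb*, the family's best-studied driver of lysosome genes, fell further than the all-gene median at 72 and 144 h in wild-type cells. It stood at 52.5 and 44.9 spike-in normalized TPM in untreated wild-type cells, 27.1 and 43.5 after 24 h, 20.6 and 17.5 after 72 h and 16.4 and 13.1 after 144 h. It fell by 1.31 at 72 h (SE 0.32, limma adjusted p = 0.017) and by 1.66 at 144 h (SE 0.32, limma adjusted p = 0.00070). The fall was also called on the plain scale, at 72 h (-0.87, SE 0.15, limma adjusted p = 0.0027) and at 144 h (-0.66, SE 0.15, limma adjusted p = 0.0094). All 72 h and 144 h wild-type libraries lay below all untreated and 24 h ones. The 144 h call held without each library in turn, whereas the 72 h call was lost without untreated replicate 1 (limma adjusted p = 0.14), untreated replicate 2 (0.10), 72 h replicate 1 (0.068) or 72 h replicate 2 (0.23).

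In the DKO, *Tfeb* stood at 52.6 and 57.0 spike-in normalized TPM untreated, 35.0 and 24.0 after 24 h and 30.6 and 20.5 after 72 h. Neither treated group overlapped the untreated one. The differences from 0 h were not called on the spike-in scale (-0.89 at 24 h, limma adjusted p = 0.054, and -1.10 at 72 h, limma adjusted p = 0.062). Both were called once the replicate number was a block within each genotype (limma adjusted p = 0.0090 and 0.0062), and on the plain scale the 72 h fall was called without it (-0.77, SE 0.15, limma adjusted p = 0.0053).

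*Mitf*, known for its role in melanocytes, stood at 29.3 and 19.2 spike-in normalized TPM in untreated wild-type cells and at 7.90 and 8.57 after 144 h, with values from 14.7 to 18.5 between. The 144 h libraries lay below all others of the series. It fell by 1.42 (SE 0.32, limma adjusted p = 0.0020), and the call held without each library in turn, but on the plain scale the change of -0.45 was not called (SE 0.27, limma adjusted p = 0.23). A 252-base gene, *Gm15531*, lies on the opposite strand within *Mitf*, and the use of strand in counting was not given. *Tfec*, a MiT member best known from macrophages, ranged from a listed 0 to 3.38 TPM and did not pass the filter of a mean of 1 TPM. Its 2 highest values, 3.38 in untreated wild-type replicate 2 and 1.95 in wild-type 24 h replicate 1, were not shared by untreated replicate 1 at 0.17.

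The makeup of the family shifted between groups. *Tfe3* made up 50.3% and 59.7% of the summed MiT TPM in untreated wild-type cells and 68.9% and 69.6% at 144 h, while *Tfeb* went from 31.8% and 26.8% to 20.9% and 18.3%. At 72 h *Tfeb* made up 15.6% and 17.2% in wild-type and 22.8% and 19.6% in DKO libraries. The plain sum of the 4 transcripts ranged from 68.3 to 80.3 TPM over the wild-type libraries. In the DKO it was 68.1 and 70.5 TPM untreated, 52.3 and 62.3 after 24 h and 53.0 and 60.7 after 72 h, and the 4 treated libraries lay below every wild-type one. The log2 ratio of *Tfeb* to *Tfe3* within a library was lower by 0.62 in the 10 mTORi than in the 4 untreated libraries, but the groups overlapped (two-sided exact permutation test, adjusted p = 0.14 over 8 ratio tests).

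**Figure D1:**
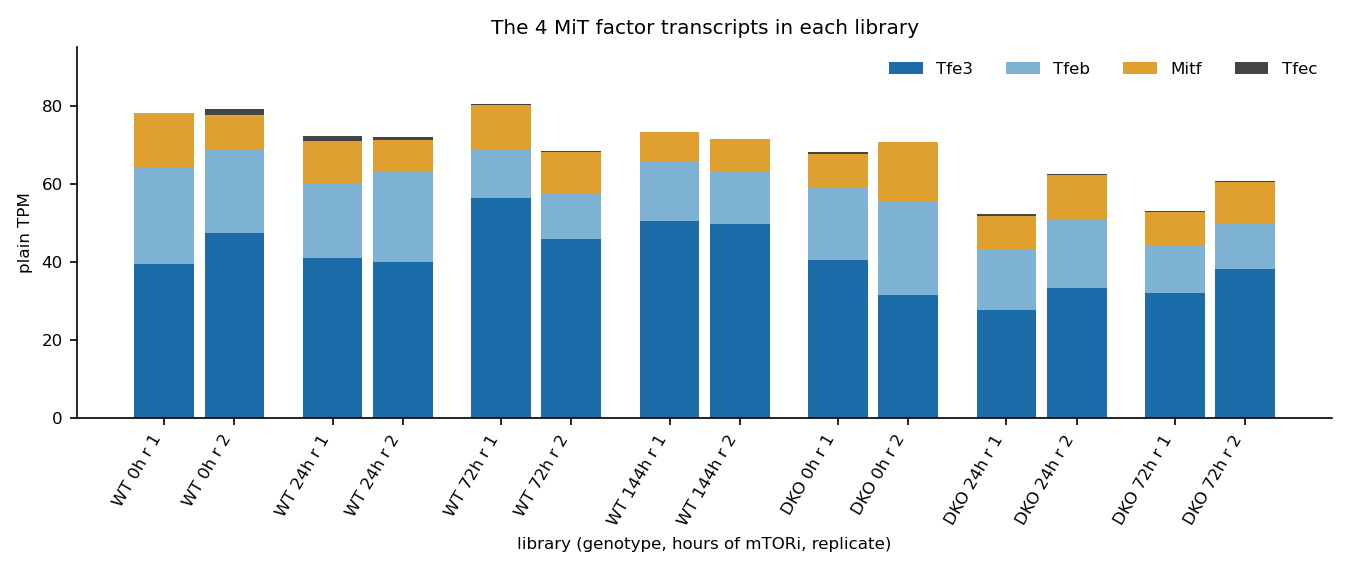
Plain TPM of *Tfe3*, *Tfeb*, *Mitf* and *Tfec* stacked for each of the 14 libraries, grouped by genotype and hours of mTORi. The *Tfeb* segment is narrowest at 72 h in both genotypes and *Tfec* is barely visible, with at most 1.60 TPM.

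*Fnip1* and *Rragc* were the only members whose promoter window held the E-box form that MiT factors are known to bind. Windows from 250 bases before to 50 after each RefSeq start (GRCm38.p6, 15 windows for the 10 genes) were searched on both strands for the core CACGTG, for the longer form TCACGTG, which contains that core, and for the variant TCATGTG. Both are shown because of this match and because their log2 plain TPM ran together over the 14 libraries (r = 0.93). *Flcn*, whose window held no match, ran with them as closely (r = 0.95 with *Fnip1* and 0.94 with *Rragc*). The match to TCACGTG, read here on its minus strand, is in capitals. *Fnip1* is at chr11:54437929-54438228 (plus strand), with the match at -75 to -69, and *Rragc* at chr4:123917183-123917482 (plus strand), with the match at -112 to -106.
Fnip1: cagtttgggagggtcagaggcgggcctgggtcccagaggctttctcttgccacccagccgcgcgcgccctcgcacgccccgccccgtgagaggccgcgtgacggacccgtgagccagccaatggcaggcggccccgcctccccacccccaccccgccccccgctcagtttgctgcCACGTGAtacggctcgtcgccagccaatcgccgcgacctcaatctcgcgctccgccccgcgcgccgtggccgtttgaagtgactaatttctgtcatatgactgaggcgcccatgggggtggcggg
Rragc: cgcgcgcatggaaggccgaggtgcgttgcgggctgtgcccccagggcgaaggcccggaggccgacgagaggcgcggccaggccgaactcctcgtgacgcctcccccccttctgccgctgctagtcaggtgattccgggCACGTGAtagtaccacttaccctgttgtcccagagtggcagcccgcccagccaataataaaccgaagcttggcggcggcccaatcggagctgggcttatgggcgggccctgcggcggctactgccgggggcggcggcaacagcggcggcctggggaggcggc
Of all 32851 RefSeq windows, 7.15% held the core CACGTG, 3.77% the longer form TCACGTG and 3.77% the variant TCATGTG. A match is a description of these letters, and a window without one says only that they are not in it.

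*Fnip1*, the folliculin partner, showed the largest rise among the members. It stood at 9.07 and 12.1 plain TPM in untreated wild-type cells, 23.3 and 27.9 after 24 h, 17.0 and 20.4 after 72 h and 18.8 and 21.2 after 144 h, and in the DKO at 11.8 and 10.9, 24.9 and 19.5, and 19.8 and 20.1 at 0, 24 and 72 h. In both genotypes every treated library lay above every untreated one. In plain TPM the rise was called at 24 h (1.20, SE 0.16, limma adjusted p = 0.00054), 72 h (0.77, limma adjusted p = 0.0073) and 144 h (0.86, limma adjusted p = 0.0039) in wild-type cells, and at 24 h (0.90, limma adjusted p = 0.0031) and 72 h (0.77, limma adjusted p = 0.0081) in the DKO.

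On the spike-in scale *Fnip1* stood at 19.2 and 25.6 TPM untreated, 33.4 and 51.6 after 24 h, 28.1 and 30.4 after 72 h and 20.1 and 21.2 after 144 h in wild-type cells. The change of 0.88 at 24 h was not called (SE 0.35, limma adjusted p = 0.11), but was with the replicate block within each genotype (limma adjusted p = 0.0076) and without either DKO 24 h library (0.029 in both cases, beside 2.55% and 2.54% of all genes higher). With 1 library left out, the 24 h value ran from 0.57 to 1.18. At 144 h the value was -0.10 (SE 0.35), beside the all-gene median of -0.83.

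*Flcn* and *Rragc* were also higher at 24 h in wild-type cells, by less. *Flcn* stood at 15.9 and 19.6 plain TPM untreated and 24.3 and 29.0 after 24 h in wild-type cells, and *Rragc* at 19.1 and 22.2 and at 28.7 and 35.7. At 24 h both rose on the plain scale (*Flcn* 0.56, limma adjusted p = 0.0089, and *Rragc* 0.61, limma adjusted p = 0.0070), with no overlap. *Flcn* was also called at 144 h (0.39, limma adjusted p = 0.047). On the spike-in scale neither was called at any time, with 24 h changes of 0.21 (SE 0.34) and 0.26 (SE 0.33). At 144 h their changes there were -0.60 and -0.63, which became calls with the replicate block (limma adjusted p = 0.026 and 0.017). In the DKO both were also higher after 24 h in plain TPM, without overlap or a call. *Flcn* went from 19.2 and 17.3 to 24.5 and 22.0, and *Rragc* from 21.2 and 18.6 to 28.4 and 24.7. Over the 14 libraries the log2 plain TPM of *Flcn* correlated with that of *Fnip1* at r = 0.95 and of *Rragc* at r = 0.94, a description in which all points share the library.

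*Fnip2*, the other partner of folliculin, stood at 41.1 and 48.2 spike-in normalized TPM untreated, 34.3 and 49.4 after 24 h, 40.5 and 38.1 after 72 h and 32.2 and 31.1 after 144 h in wild-type cells. It was not called on this scale at any time. In plain TPM it rose by 0.51 at 144 h (SE 0.14, limma adjusted p = 0.020). The balance of the 2 partners moved with treatment. The *Fnip2* to *Fnip1* ratio was 2.14 and 1.88 in untreated wild-type libraries, 1.02 and 0.956 after 24 h, 1.44 and 1.25 after 72 h and 1.60 and 1.47 after 144 h. In the DKO it was 1.63 and 1.44 untreated, 0.877 and 0.867 after 24 h and 1.06 and 1.05 after 72 h. Over all libraries the log2 ratio was lower by 0.63 with mTORi (10 against 4 libraries, two-sided exact permutation test, p = 0.00999, adjusted p = 0.040). A ratio within a library does not depend on the spike-in factor. The call was lost without 10 of the 14 libraries in turn (adjusted p up to 0.13), and held without wild-type 72 h replicate 1, either wild-type 144 h library or DKO 0 h replicate 2 (adjusted p from 0.028). With 1 difference per genotype and replicate number, all 4 were lower, by a mean of 0.67 (-0.76 to -0.59), and the two-sided exact sign-flip test gave p = 0.125, the smallest it allows (adjusted p = 0.33).

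*Rragd*, the other Rag GTPase gene, was lower relative to *Rragc* in the libraries labelled DKO. It stood at 32.4 and 65.5 spike-in normalized TPM in untreated wild-type cells, 26.4 and 52.2 after 24 h, 29.2 and 25.1 after 72 h and 19.9 and 17.6 after 144 h. In the DKO it stood at 27.1 and 19.3, 32.4 and 14.4, and 18.7 and 15.4 at 0, 24 and 72 h. Wild-type replicate 2 was far above replicate 1 at 0 and 24 h, and the DKO libraries lay below or among the lower wild-type ones. *Rragd* fell by 1.26 at 144 h in wild-type cells (SE 0.40, limma adjusted p = 0.015), a call lost without untreated replicate 2 (-0.76, limma adjusted p = 0.22) or 144 h replicate 2 (-1.17, limma adjusted p = 0.086), and not made on the plain scale (-0.26, limma adjusted p = 0.53).

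The ratio of *Rragd* to *Rragc* was 0.806 and 1.40 in untreated wild-type libraries, 0.642 and 0.788 after 24 h and 0.735 and 0.625 after 72 h. In the libraries labelled DKO it was 0.456 and 0.438, 0.511 and 0.430, and 0.293 and 0.371. All 6 DKO ratios lay below all 6 wild-type ones. The mean log2 ratio was lower by 0.96 (6 against 6 libraries, two-sided exact permutation test, p = 0.0022, the smallest it allows, adjusted p = 0.017), and the call held without each library in turn (adjusted p from 0.028 to 0.035). This test takes the libraries as exchangeable, although the 3 times of a replicate number were processed together. With 1 mean per genotype and replicate number, 2 stand against 2, no p below 0.33 can be reached, and the difference of -0.96 had that p (two-sided exact permutation test, adjusted p = 0.44). With the 24 and 72 h libraries alone, where 4 stand against 4, the difference was -0.82 and its adjusted p 0.11. *Rragd* itself differed by -0.98, -0.75 and -0.64 at 0, 24 and 72 h on the spike-in scale, of which 0 were called (limma adjusted p = 0.55, 0.99999 and 0.28), and its plain-scale differences were -1.21, -0.83 and -1.0004 (limma adjusted p = 0.10, 0.20 and 0.081). Beside the spike-in values the all-gene medians were 0.29, 0.10 and 0.49. With 1 library left out, the spike-in value ran from -1.48 to -0.48 at 0 h, -1.31 to -0.19 at 24 h and -0.78 to -0.51 at 72 h.

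Primitive endoderm markers were higher in the replicate with more *Rragd* in 6 of the 7 groups on the spike-in scale and in 5 of 7 on the plain scale. Their summed spike-in normalized TPM in wild-type replicates 1 and 2 was 26.5 and 89.5 untreated, 144.0 and 337.6 after 24 h, 22.5 and 57.5 after 72 h and 14.8 and 12.9 after 144 h, with the 72 h pair opposite to *Rragd*. In the DKO it was 113.9 and 31.7 untreated, 157.8 and 40.4 after 24 h and 86.6 and 40.6 after 72 h, in each pair in the order of *Rragd* on that scale. Their part in the *Rragd* values was not tested.

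**Figure D2:**
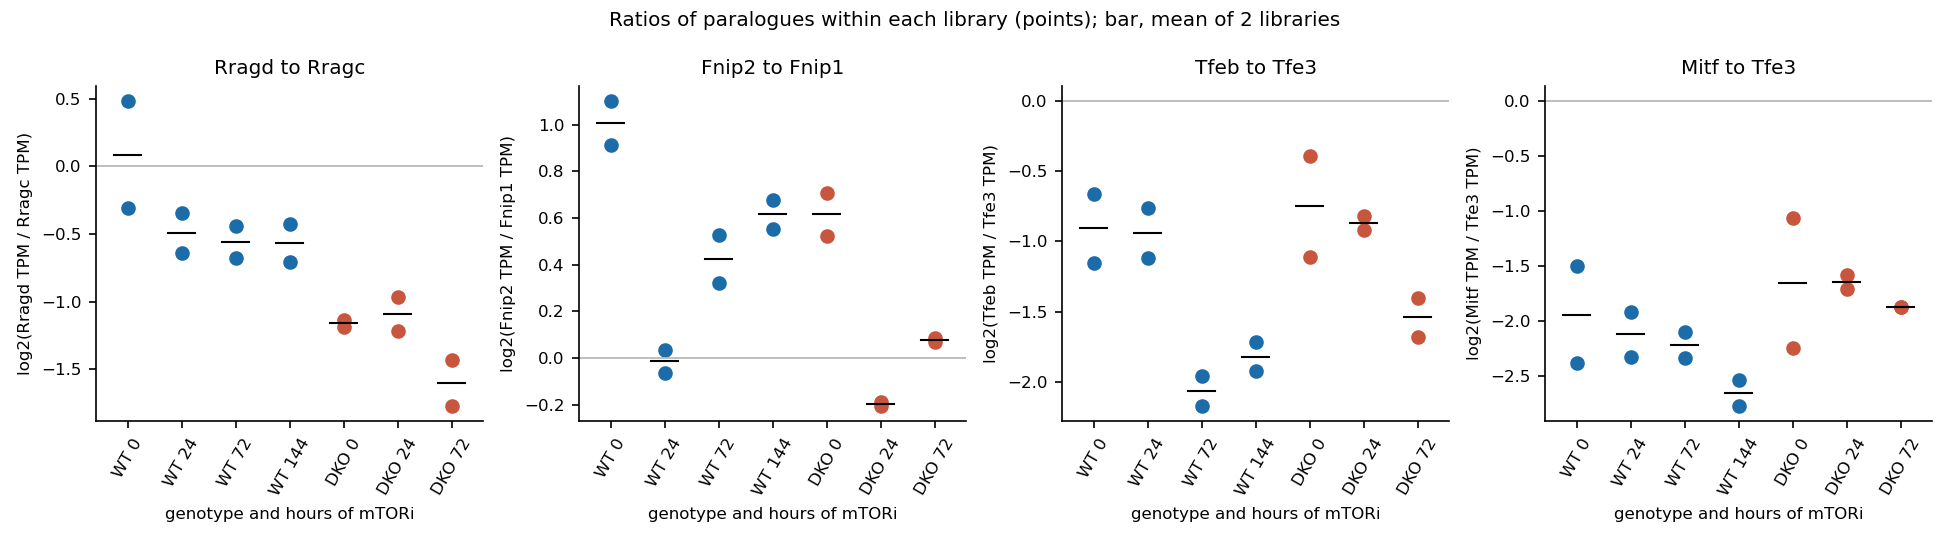
Log2 ratio of 2 related transcripts within each library, for *Rragd* to *Rragc*, *Fnip2* to *Fnip1*, *Tfeb* to *Tfe3* and *Mitf* to *Tfe3*; points are libraries, bars the mean of 2, blue wild type and red DKO. The 6 DKO points for *Rragd* to *Rragc* lie below all wild-type points, and *Fnip2* to *Fnip1* is lowest at 24 h in both genotypes.

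*Gpnmb*, a transmembrane glycoprotein gene often used as a readout of TFE3 activity in kidney cells, was near the floor. It ranged from 0.041 to 1.14 spike-in normalized TPM and did not pass the filter. The highest values were 1.14 in DKO 0 h replicate 1 and 0.82 in wild-type 24 h replicate 2, and the 2 wild-type 72 h libraries stood at 0.09 and 0.04. In a fit without the filter neither *Gpnmb* nor *Tfec* was called in any comparison.

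**Figure D3:**
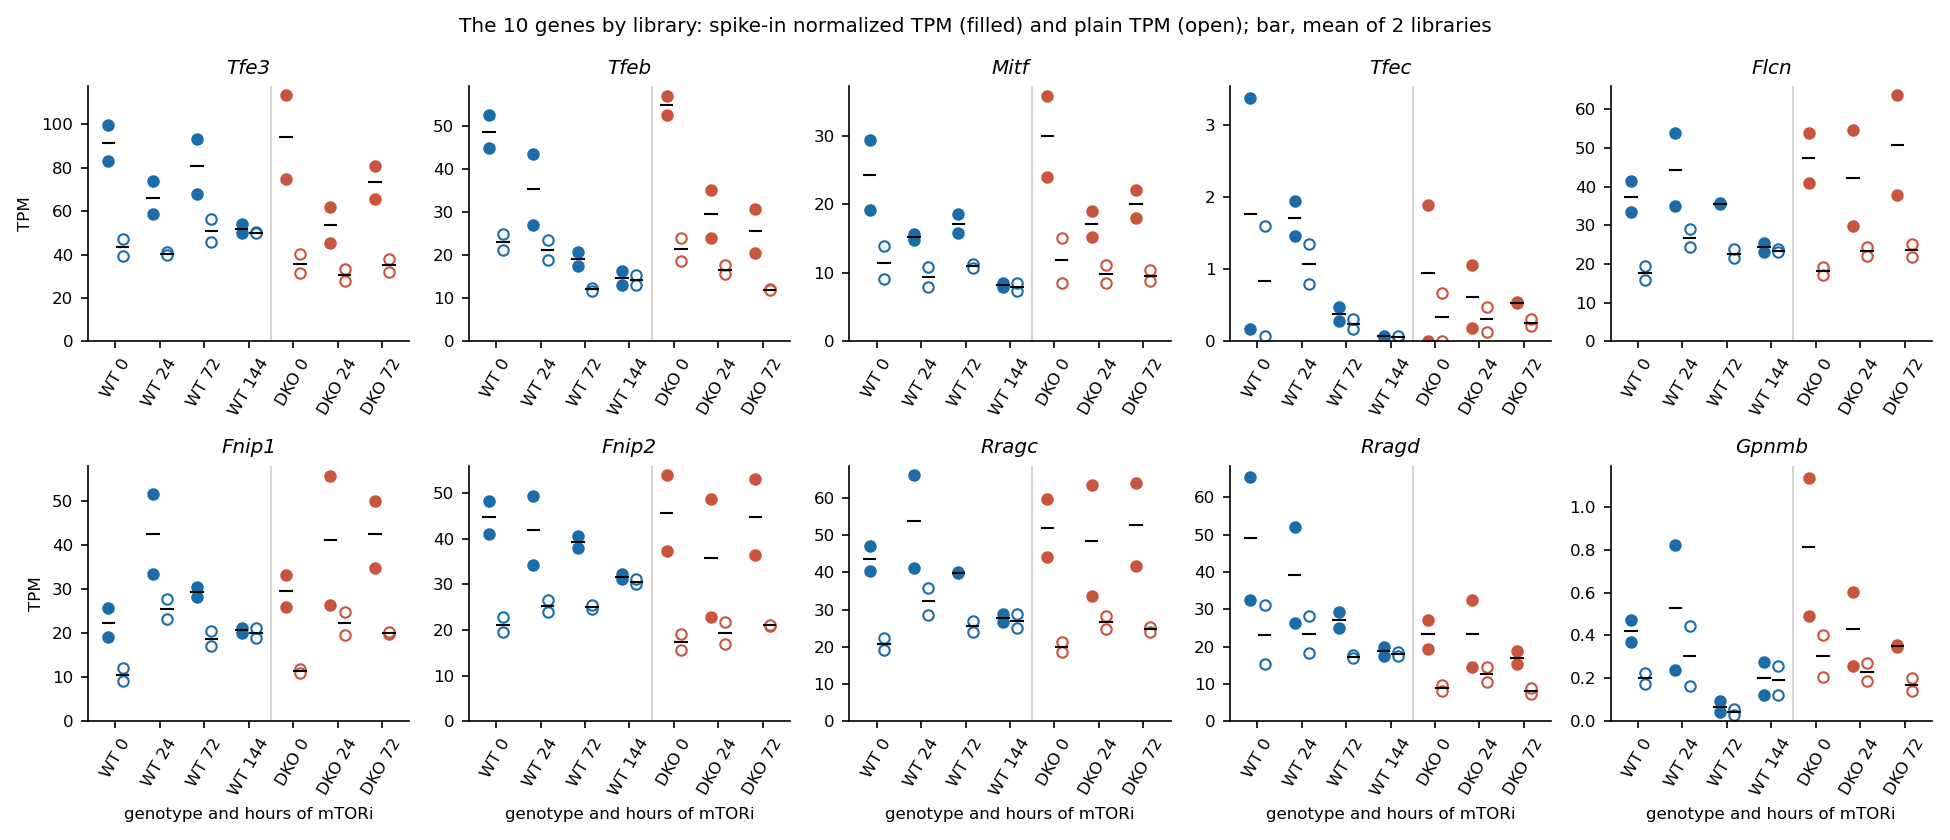
Levels of the 10 genes in the 7 groups, spike-in normalized TPM (filled) and plain TPM (open); points are libraries and bars the mean of 2. *Fnip1* plain TPM is 9.07 and 12.1 in untreated wild-type libraries and 23.3 and 27.9 after 24 h, and *Tfeb* is lower at 72 h than at 0 h in both genotypes.

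Counted over the 8 members tested on the spike-in scale, wild-type cells after 24 h of mTORi gave 0 calls (1.25% of all genes were higher, 8.73% lower and 9.98% either, and 1 member had an unadjusted p under 0.05). After 72 h 1 member was lower, *Tfeb* (0.697% of all genes higher, 7.6% lower and 8.29% either). After 144 h 4 were lower, *Tfe3*, *Tfeb*, *Mitf* and *Rragd* (0.461% of all genes higher, 50.5% lower and 50.9% either), a share near the background. Without the filter on low values the calls of *Tfeb* after 72 h and of *Tfe3* and *Rragd* after 144 h were lost (limma adjusted p = 0.057, 0.063 and 0.093), while *Rragc* gained a call after 144 h when either DKO 24 h library was left out (0.050 in both cases, beside 59.7% and 59.6% of all genes lower).

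The DKO gave 0 calls after 24 h (0.505% of all genes higher, 18.7% lower and 19.2% either, with 3 members at an unadjusted p under 0.05) and 0 after 72 h (0.713% higher, 2.95% lower and 3.66% either, with 1 member). Without DKO 24 h replicate 1, 4 members were lower after 24 h, namely *Tfe3*, *Tfeb*, *Mitf* and *Fnip2* (limma adjusted p = 0.013, 0.0097, 0.037 and 0.024), when 47.7% of all genes were lower, and the lone 24 h library left was taken to vary like the other groups. *Tfeb* was also called after 24 h without either DKO 72 h library (0.042, beside 20.6% of all genes lower in both fits) and after 72 h without either DKO 24 h library (0.017, beside 7.95% and 7.93%). Under the genotype-wise replicate block, wild-type cells gave 1 call after 24 h (30.2% of all genes), 1 after 72 h (28.3%) and 6 after 144 h (67.4%), and the DKO gave 3 after 24 h, *Tfe3*, *Tfeb* and *Mitf* (40% of all genes), and 1 after 72 h (18.5%).

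In plain TPM 3 members rose in wild-type cells after 24 h, *Flcn*, *Fnip1* and *Rragc* (15.8% of all genes higher, 14.1% lower and 29.9% either). After 72 h *Fnip1* rose and *Tfeb* fell (12.6%, 11.4% and 24%), and after 144 h *Flcn*, *Fnip1* and *Fnip2* rose and *Tfeb* fell (15.6%, 11.7% and 27.3%). The DKO showed a rise of *Fnip1* after 24 h (11.6%, 13.3% and 24.9%), and after 72 h a rise of *Fnip1* and a fall of *Tfeb* (17.2%, 9.06% and 26.3%). In both genotypes and on both scales the estimates for *Tfe3*, *Tfeb* and *Mitf* lay below the all-gene median after 24 h, and those for *Flcn*, *Fnip1*, *Fnip2* and *Rragc* above it in these fits.

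**Figure D4:**
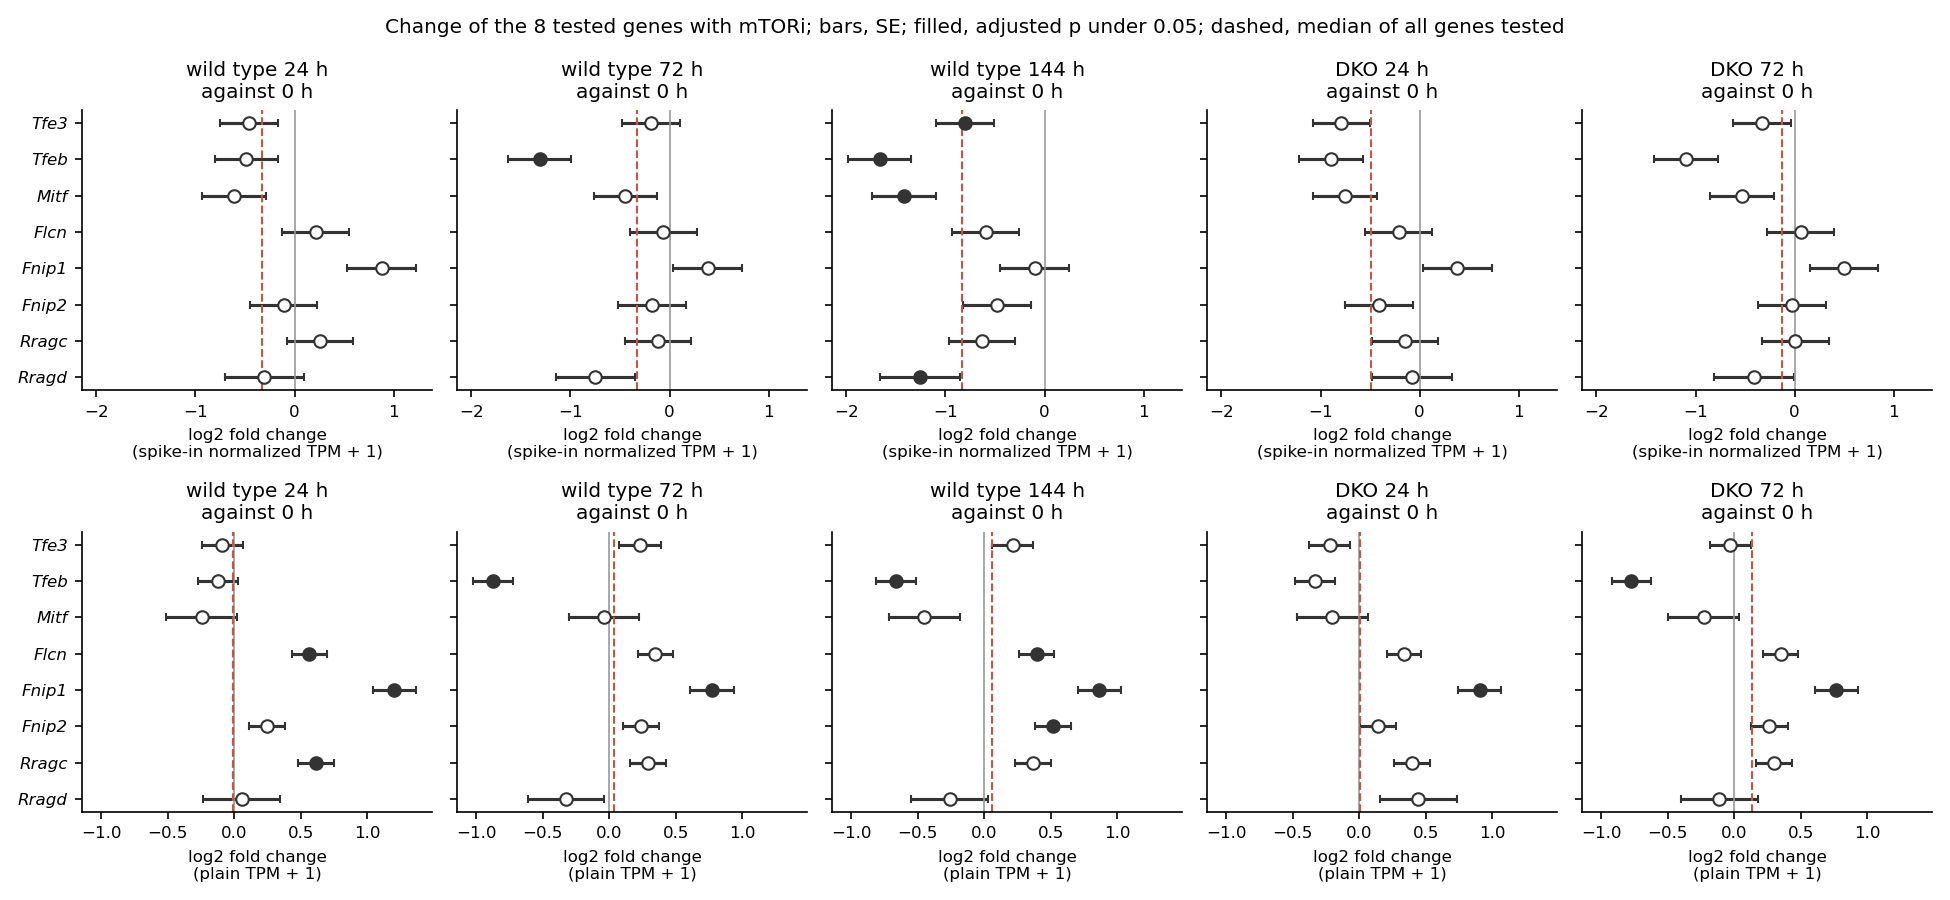
Log2 fold change of the 8 tested genes for each mTORi time against 0 h, on the spike-in scale (top) and the plain scale (bottom); bars are SE, filled points have a limma adjusted p under 0.05, and the dashed line is the median of all 18232 genes. *Tfeb* lies left of the line at 72 and 144 h, and *Fnip1* right of it in all 5 comparisons on both scales.

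Set against wild type at the same time, the DKO gave 0 calls among the 8 members on the spike-in scale (limma). Of all genes, 0.0274% were higher and 0.0165% lower at 0 h (0.0439% either), 0.011% and 0.0329% after 24 h (0.0439% either) and 0.302% and 0.0274% after 72 h (0.329% either). The members with an unadjusted p under 0.05 numbered 1, 0 and 0. Plain TPM gave 0 calls as well, beside 0.422% higher and 0.176% lower at 0 h (0.598% either), 0.581% and 0.79% after 24 h (1.37% either) and 3.17% and 0.845% after 72 h (4.01% either), and here 1, 3 and 2 members had an unadjusted p under 0.05. The responses of the genotypes to mTORi were also set against each other, and 0 members were called after 24 h (0.00548% of all genes) or 72 h (0%), with 0 members under an unadjusted p of 0.05 on either scale and 0 calls with the replicate block. The SE of a member's genotype difference ran from 0.29 to 0.40 on the spike-in scale, and the -0.98 of *Rragd* at 0 h was not called.

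The genes around the axis were taken from 4 lists. Of 34 tested CLEAR network targets, lysosome and autophagy genes named for the MiT binding element, 3 rose in wild-type cells at 24 h on the spike-in scale (limma, against 1.25% of all genes higher). These were *Hexa* (1.52), a lysosomal hexosaminidase subunit, *Wipi1* (1.48), which acts in autophagosome formation, and *Ctsa* (1.47), lysosomal cathepsin A. All 3 calls were lost without the filter on low values, and with a library left out: *Hexa* without either untreated library or 24 h replicate 2 (limma adjusted p up to 0.27), *Wipi1* without any of the 4 libraries compared (up to 0.12) and *Ctsa* without untreated replicate 1 or 24 h replicate 2 (up to 0.13). The list median was 0.15 beside -0.33 for all genes, with 31 of 34 above the all-gene median. On the plain scale 25 of 34 rose (15.8% of all genes) and the median was 0.50 beside -0.0077, with 33 of 34 above it. The replicate block gave 9 rises (4.48% of all genes higher).

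Of 6 marker lists of other cell types, 2 had higher plain sums after 24 h in wild-type cells. In wild-type replicates 1 and 2 the 6 primitive endoderm markers, all at a mean of at least 1 TPM, summed to 12.6 and 42.4 plain TPM untreated and to 100.4 and 182.1 after 24 h. The 5 trophectoderm markers, 4 of them at that mean, summed to 34.4 and 53.5 untreated and to 74.5 and 66.5 after 24 h, but their spike-in normalized sums overlapped (72.7 and 112.9, then 106.8 and 123.2). In plain TPM the neural sums went from 14.7 and 17.4 to 8.24 and 6.82, the macrophage sums from 21.6 and 19.0 to 9.59 and 7.77 and the melanocyte sums from 9.47 and 13.1 to 5.09 and 4.93, while the fibroblast sums of 2.33 and 3.59 overlapped those after 24 h. In the DKO the primitive endoderm sums were 40.5 and 13.3 untreated and 70.6 and 29.8 after 24 h, and the trophectoderm sums 49.7 and 36.9, then 64.0 and 38.8, so both overlapped. Within each replicate number both plain sums were higher after 24 h. On the spike-in scale this held for primitive endoderm, while the trophectoderm sum of replicate 2 went from 87.7 to 52.7. The part of these markers in the CLEAR values, and in those of *Fnip1*, *Flcn* and *Rragc* at 24 h, was not tested.

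In the DKO at 24 h 0 CLEAR targets rose and 2 fell on the spike-in scale (among them *Atp6v1a*, a subunit of the lysosomal proton pump, at -0.88, a call lost without the filter and in 9 of the 14 cases with 1 library left out: any wild-type 0, 72 or 144 h library, either DKO 0 h library or DKO 24 h replicate 2), beside 0.505% of all genes higher and 18.7% lower, and with the replicate block 2 rose and 6 fell (1.95% and 38.1%). On the plain scale 11 rose and 2 fell, beside 11.6% and 13.3%. The plain median was 0.23 beside 0.0057 for all genes, with 27 of 34 above it. The difference between the responses at 24 h was called for 0 of 34 on either scale, with a list median of -0.55 beside -0.19 on the spike-in scale and -0.36 beside -0.012 on the plain scale, and 1 of 34 above the all-gene median on both. At 144 h in wild-type cells 18 fell (50.5% of all genes), led by *Cd63* (-1.87), *Atp6v1a* (-1.42) and *Sqstm1* (-1.34), and on the plain scale 12 rose and 3 fell (15.6% and 11.7% of all genes). Of 25 list genes with a RefSeq window, 48% held TCACGTG, beside 4.29% of all genes; the list is in part defined by this element.

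Of 24 genes of the Rag GTPases, Ragulator, GATOR and mTORC1, which place mTORC1 at the lysosome, 1 fell in wild-type cells at 24 h (*Lamtor4*, a Ragulator subunit, -1.26, limma adjusted p = 0.014, and up to 0.15 without either untreated library or 24 h replicate 1), 2 at 72 h and 14 at 144 h (8.73%, 7.6% and 50.5% of all genes lower). The last were led by *Lamtor4* (-1.64), *Sec13* (-1.54) and *Rraga* (-1.48), all lower on the plain scale too (-0.63, -0.52 and -0.46). In the DKO at 24 h 8 fell (18.7% of all genes), led by *Lamtor4* (-1.29), *Sec13* (-1.25) and *Seh1l* (-1.22). These 3 calls were lost without DKO 0 h replicate 1 or DKO 24 h replicate 2 (limma adjusted p up to 0.085, 0.077 and 0.17), and the wild-type 72 h calls, *Lamtor4* and *Sec13*, when any 1 wild-type library of 0, 72 or 144 h was left out (up to 0.36 and 0.34). The call of *Sec13* at 72 h was also lost without either DKO 0 h library, and both 72 h calls and that of *Seh1l* were lost without the filter on low values. The list median was -0.38 beside -0.33 for all genes after 24 h in wild-type cells and -0.84 beside -0.83 after 144 h. In plain TPM 3 rose and 4 fell in wild-type cells at 24 h (15.8% and 14.1% of all genes), 6 and 5 at 72 h (12.6% and 11.4%) and 7 and 4 at 144 h (15.6% and 11.7%), and 3 and 7 in the DKO at 24 h (11.6% and 13.3%). The replicate block gave 6 falls at 24 h and 8 at 72 h in wild-type cells on the spike-in scale (25.7% and 25.4% of all genes lower).

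Among 14 regulators of MiT factor localization, 3 fell in wild-type cells at 24 h (8.73% of all genes lower), all among the list's 7 genes for 14-3-3 proteins, which hold phosphorylated MiT factors in the cytoplasm: *Ywhab* (-1.11, limma adjusted p = 0.019), *Ywhaz* (-1.03, limma adjusted p = 0.021) and *Ywhaq* (-0.93, limma adjusted p = 0.027). The other 4, *Sfn* (-1.04), *Ywhag* (-0.62), *Ywhae* (-0.52) and *Ywhah* (-0.52), were not called (limma adjusted p from 0.12 to 0.24). The 3 fell on the plain scale as well (-0.73, -0.66 and -0.56), and in the DKO at 24 h on both, though the wild-type spike-in calls were lost without the filter on low values, without either untreated library or without 24 h replicate 1 (limma adjusted p up to 0.20), and that of *Ywhaq* also without 24 h replicate 2. The DKO spike-in calls of *Ywhab* and *Ywhaq* were lost without DKO 0 h replicate 1, and that of *Ywhaq* without DKO 0 h replicate 2 (limma adjusted p up to 0.059). *Mcoln1*, the lysosomal calcium channel, was higher by 1.06 at 24 h without a call on the spike-in scale (limma adjusted p = 0.059), was called there with the replicate block (limma adjusted p = 0.0022) and rose by 1.40 on the plain scale (limma adjusted p = 0.00019). With 1 library left out, its spike-in value ran from 0.69 to 1.44. The block called 1 of the 14 higher and 7 lower at 24 h (4.48% and 25.7% of all genes). At 144 h 10 of the 14 fell, beside 50.5% of all genes, whereas in plain TPM 3 rose and 3 fell (15.6% and 11.7% of all genes).

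**Figure D5:**
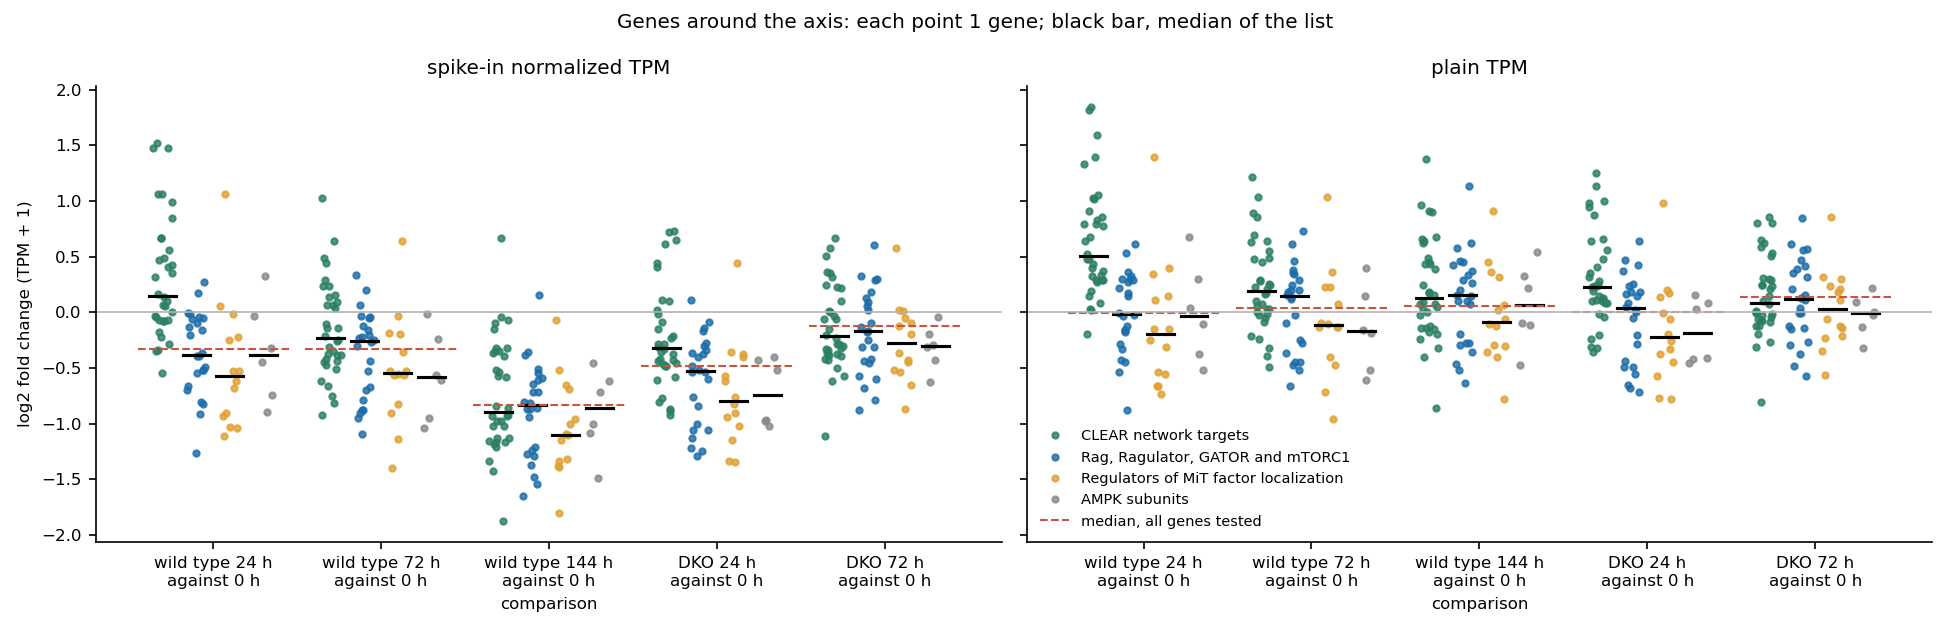
Log2 fold change of each tested gene of the 4 lists for each mTORi time against 0 h, on the spike-in scale (left) and the plain scale (right); black bars are list medians and dashed lines the median of all genes. The CLEAR points sit highest at 24 h in wild-type cells, with a median of 0.50 on the plain scale.

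The genes whose log2 plain TPM over the 14 libraries was most like a member's were, for *Tfe3*, *Lamtor3* (r = 0.90), *Ciart* (0.90) and *Efnb2* (0.89). For *Flcn* they included *Sppl3* and *Cc2d1b* (each r = 0.96), and for *Rragd* *Jade1* (0.96), *Peg3* (0.90) and *Gm4606* (0.90). For *Gpnmb*, which was near the floor, they were *Rasal1* (0.85), *Dcaf4* (0.85) and *Plbd1* (0.84). Each is the top of a ranking over the genes tested, and no chance level was set for these correlations.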

How the data were processed

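RNA-seq was analysed for 14 libraries, 2 in each of 7 groups. Per the submitters' processing notes, the authors used cutadapt 2.4 for trimming, STAR 2.7.3a for alignment (mm10) and StringTie 2.0 for abundances over GENCODE VM19 genes. The deposited values are TPM, which sum to 1000000 per library over 54446 identifiers, and 0 entries carry an ERCC name. Entries of 1 identifier were summed. Spike-in normalized TPM were obtained with 1 factor per library, the median ratio of the 1999 supplementary table entries at hand to the deposited TPM, over entries of at least 1 TPM. TPM keep no depth, so no counting error is given.

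Values were tested as log2(TPM + 1), which understates the change of low genes, over 18232 genes whose mean spike-in normalized TPM reached 1, in limma 3.58.1 (R 4.3.3; empirical Bayes with trend, all 7 groups), with Benjamini-Hochberg adjustment over all genes and calls at 0.05. The authors used DESeq2, which needs counts that were not used here. The study describes its replicates as biological and its experiments as independently repeated, with the times of 1 replicate handled together. Deviations from group means correlated by replicate number within a genotype (0.222 to 0.341 in 3 of 3 DKO pairs and over 0.1 in 5 of 6 wild-type pairs, up to 0.398). Between genotypes 10 of 12 such correlations were below 0, down to -0.50, so the correlations do not by themselves show pairing. Ratios used TPM + 0.01 and 2-sided exact permutation tests. Named genes were the members, up to 3 called genes of largest change per list and comparison on either scale, *Esrrb*, *Tet1*, *Tet2* and the 3 genes most like *Tfe3*, *Flcn*, *Rragd* and *Gpnmb*. The script was tested on simulated data. The members and lists were chosen with earlier results of these data known. Alternatives were plain TPM, a pseudocount of 0.1, no filter, no trend, a replicate block and leaving out each library; plain TPM with the block within genotypes, and the ratios without each library or with 1 value per replicate number and genotype, were added after seeing the data. Overlapping genes (*Mitf*, *Fnip1*, *Fnip2*, *Rragc* and *Rragd* each overlap at least 1) could share reads. Promoter windows are from RefSeq, GRCm38.p6. Values of 2 genes that the naming rule selects are not reported here.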

Additional observations from a re-analysis of the deposited data

Results flagged for a closer look

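The log2 ratio of *Rragd* to *Rragc* in wild-type libraries at 0 to 72 h had 1 library far from the other 5. Untreated replicate 2 was at 0.48, and the gap to its nearest neighbour was 0.684 of the whole range of the 6 libraries. Chance alone sets a library apart in this way in about 1 in 20 groups, and 16 groups were screened. Without that library the genotype difference of this ratio was -0.80, the smallest of the 12 omissions, which ran from -1.03.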

How the results depend on the processing

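Of the 80 pairs of a member and a comparison, 51 changed sign under at least 1 alternative, 26 of them under plain TPM and 40 when 1 library was left out (some under both). Only 1 of the 51 had been called, *Tfe3* at 144 h. Pseudocount 0.1, no trend and the block over all libraries changed no member's call or sign. Depth is unknown, and 2 libraries per group limit every call.

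The count of members called in wild-type cells was 3 at 24 h and 2 at 72 h on the plain scale, and 0 at 72 h and 2 at 144 h without the filter, which tests 38890 genes (1.87% and 18.6% of them called); in the DKO it was 1 and 2 on the plain scale at 24 and 72 h (all-gene shares 29.9% and 24% in wild-type cells and 24.9% and 26.3% in the DKO). With the replicate block within each genotype it was 1 in wild-type cells at 24 h, 6 at 144 h and 3 and 1 in the DKO at 24 and 72 h (30.2%, 67.4%, 40% and 18.5% of all genes). With plain TPM and the block it was 3, 4 and 5 in wild-type cells at 24, 72 and 144 h (37.1%, 32% and 35.5% of all genes) and 3 and 4 in the DKO at 24 and 72 h (31.9% and 35.8%), the calls added to those of plain TPM being *Flcn* and *Rragc* at 72 h in both genotypes and at 24 h in the DKO, and *Rragc* at 144 h. Without 1 library the counts ran from 0 to 1 at 24 and 72 h and 2 to 5 at 144 h in wild-type cells, and from 0 to 4 and 0 to 1 in the DKO, while the share of all genes called lower ran from 1.46% to 17.2%, 0.318% to 17.2% and 21.5% to 59.7% in wild-type cells at 24, 72 and 144 h, and from 4.17% to 47.7% and 0.362% to 7.95% in the DKO at 24 and 72 h. The ratio differences were -0.66 for *Fnip2* to *Fnip1* in wild-type libraries alone and -0.82 for *Rragd* to *Rragc* at 24 and 72 h alone, where fewer libraries were tested, and -0.67 and -0.96 with 1 value per replicate number and genotype, where the test cannot reach 0.05. Leaving out libraries, the mTORi difference ran from -0.73 to -0.53 for *Fnip2* to *Fnip1* and from -0.54 to 0.016 for *Rragd* to *Rragc*.

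On the plain scale, with or without the block, the sign turned in wild-type cells for *Fnip2* (0.25) and *Rragd* (0.054) at 24 h, for *Tfe3* (0.23), *Flcn* (0.35), *Fnip2* (0.24), *Rragc* (0.29) and *Prkab1* (0.40) at 72 h, and for *Tfe3* (0.21), *Flcn* (0.39), *Fnip1* (0.86), *Fnip2* (0.51), *Rragc* (0.36), *Mtor* (0.62), *Mcoln1* (0.91), *Ppp3ca* (0.45), *Prkab1* (0.54) and *Glb1* (0.97) at 144 h. It turned in the DKO for *Flcn* (0.34), *Fnip2* (0.14), *Rragc* (0.40) and *Rragd* (0.44) at 24 h and *Fnip2* (0.26) at 72 h. For DKO against wild type it turned for *Tfe3* (-0.27), *Tfeb* (-0.11), *Fnip2* (-0.27) and *Rragc* (-0.051) at 0 h and *Tfeb* (-0.013), *Mitf* (-0.18), *Fnip2* (-0.24) and *Rragc* (-0.044) at 72 h, and for the response difference for *Mitf* at 24 h (0.043) and *Fnip1* at 72 h (-0.0064). The scale moved the all-gene median with these.

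Leaving out 1 library turned the sign within these ranges. In wild-type cells they were, at 24 h, *Fnip2* -0.37 to 0.15, *Rragd* -0.80 to 0.19, *Flcn* -0.092 to 0.52 and *Rragc* -0.079 to 0.60, at 72 h *Flcn* -0.21 to 0.086, *Tfe3* -0.41 to 0.034 and *Prkab1* -0.13 to 0.11, and at 144 h *Fnip1* -0.30 to 0.10 and *Glb1* -0.18 to 0.11. In the DKO at 24 h they were *Rragc* -0.60 to 0.30, *Rragd* -0.63 to 0.48, *Fnip1* -0.14 to 0.90, *Flcn* -0.64 to 0.21, *Fnip2* -0.94 to 0.12, *Mcoln1* -0.093 to 0.98 and *Hexa* -0.033 to 1.27, and at 72 h *Fnip2* -0.29 to 0.24, *Flcn* -0.31 to 0.43 and *Rragc* -0.30 to 0.31. For DKO against wild type they were, at 0 h, *Tfe3* -0.28 to 0.31, *Fnip2* -0.25 to 0.27 and *Mitf* -0.00027 to 0.59, at 24 h *Tfeb* -0.57 to 0.095, *Flcn* -0.52 to 0.33, *Fnip1* -0.63 to 0.41, *Rragc* -0.62 to 0.28, *Mitf* -0.0020 to 0.30 and *Fnip2* -0.82 to 0.24, and at 72 h *Tfe3* -0.35 to 0.099 and *Fnip2* -0.10 to 0.42. For the response difference they were, at 24 h, *Mitf* -0.44 to 0.15, *Rragd* -0.33 to 0.79, *Flcn* -0.85 to 0.00074, *Fnip1* -1.02 to 0.026, *Fnip2* -0.83 to 0.23 and *Rragc* -0.86 to 0.041, and at 72 h *Mitf* -0.38 to 0.21, *Flcn* -0.25 to 0.49, *Fnip1* -0.14 to 0.37, *Rragd* -0.16 to 0.83, *Tfe3* -0.44 to 0.16, *Fnip2* -0.11 to 0.41, *Rragc* -0.18 to 0.43 and *Tfeb* -0.064 to 0.49. The cause was not tested.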

Other observations

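AMPK, the energy sensor that opposes mTORC1 and phosphorylates FNIP1, was represented by 6 tested subunit genes. On the spike-in scale limma called 1 lower after 72 h and 3 lower after 144 h of mTORi in wild-type cells, and 0 after 24 h (2 with the replicate block). Of all genes 7.6% were lower after 72 h, 50.5% after 144 h and 8.73% after 24 h (25.7% with the block), so the share at 144 h is that of the background. *Prkag1*, a gamma subunit, was lower at 72 h (-1.04, limma adjusted p = 0.041) and 144 h (-1.49, limma adjusted p = 0.0011), and was lower on the plain scale too (-0.61 and -0.48, limma adjusted p = 0.0018 and 0.0056). *Prkaa1* (-1.08) and *Prkaa2* (-0.998), the catalytic subunits, fell at 144 h on the spike-in scale, but not on the plain scale (-0.09 and -0.11). In plain TPM 1 subunit rose and 1 fell at 144 h (15.6% and 11.7% of all genes), and the block on the spike-in scale gave 5 falls (66.3%). In the DKO at 24 h *Prkag1* fell by 0.97 (limma adjusted p = 0.031), and the block gave 3 falls there (38.1% of all genes). The calls of *Prkag1* at 72 h and in the DKO and of *Prkaa2* were lost without the filter on low values. With 1 library left out, the call of *Prkag1* at 72 h was lost in 8 of 14 cases (every wild-type 0, 72 and 144 h and DKO 0 h library) and its DKO call in 3 (either 0 h library and 24 h replicate 2), that of *Prkaa2* without any of the 4 libraries compared, and that of *Prkaa1* without 0 h replicate 2 or either 144 h library.

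*Esrrb*, a pluripotency factor gene known as a TFE3 target in ES cells, stood at 552.7 and 442.0 spike-in normalized TPM in untreated wild-type cells, 559.1 and 587.3 after 24 h, 473.3 and 422.6 after 72 h and 337.0 and 301.8 after 144 h. It was not called on this scale at any time. On the plain scale it rose at 24 h in wild-type (0.58, limma adjusted p = 0.0090) and in DKO cells (0.46, limma adjusted p = 0.031).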
